A study of Sus scrofa with 6 samples.

Results

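Expression of 8 genes of pig chromosome 2 was described in whole embryos at embryonic day 21, 7 of which encode proteins of the brush border or of the apical membrane of epithelia. CDHR2, CDHR5, USH1C and EPS8L2 encode adhesion and actin-linked proteins of microvilli and related protrusions, and SLC34A1, SLC5A12 and SLC23A1 encode sodium-coupled cotransporters. The eighth gene, LOC100521431, is annotated as zinc finger protein 791-like, so it does not belong to the brush border by its annotation and is described separately. The genes were selected on their counts and TPM in these same samples, as lower in parthenogenetic than in control embryos. Their levels and fold changes are therefore given as a description without p-values, and where it is said which of them met the criteria applied to all genes, this too is a description. They are 8 of 30434 genes and unannotated transcripts in the tables, and all 8 passed the filter on low counts that left 1652 genes for testing.

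RNA was sequenced from 3 parthenogenetic (PA) and 3 control (CN) whole embryos, all labelled as Landrace x Yorkshire x Duroc. PA embryos came from oocytes matured in vitro and activated by electric pulses, then grown in surrogate gilts, and carry maternal genomes only. The paper gives ovaries of Landrace x Yorkshire x Duroc pigs as the source of the PA oocytes. CN embryos were recovered from Landrace x Yorkshire gilts after natural mating with boars of a breed not given. Parthenogenesis and the differences in oocyte source, breed of the mothers and mating cannot be told apart here. Each group came from 2 gilts, so at least 2 of its 3 embryos shared one, and the p-values measure the spread between these embryos. The kit used does not keep the strand of the RNA.

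The sums of estimated counts ranged from 3100284 to 3573406 per embryo, where 3 counts, taken as the smallest detectable amount, correspond to 0.84 to 0.968 CPM (counts scaled to a common library size). Counts cover almost only chromosome 2, and genes elsewhere that are active in most cells, such as EZR and RAB11A, are listed at 0 in all 6 embryos, so that TPM (a level per transcript length, scaled to a common total) is relative to the transcripts of that chromosome. For IGF2, which is expressed from the paternal allele, CN embryos held 107184 to 126288 counts and PA embryos 2351 to 4719, in the direction of the labels. PA1 stood apart by H19, which took 16.9% of its counts against 6.88% to 10.2% in the other 5 embryos. Markers of several tissues of the embryo were present, with PAX6 (neural), MYOD1 (muscle), KLF1 (erythroid), WT1 (urogenital) and F2 (liver) above the detection limit in every embryo.

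A brush border is a dense array of microvilli on the apical face of absorptive epithelia such as the intestine, the kidney proximal tubule and the visceral yolk sac. CDHR2 and CDHR5 are cadherin-related proteins that bind each other between the tips of neighbouring microvilli, and harmonin, the product of USH1C, is the scaffold that holds their tails together with ANKS4B and a myosin. Sodium cotransporters in the same membrane draw solutes into the cell along the sodium gradient. In pig embryos of this age the mesonephros is a large working kidney, while the gut lining is still immature.

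The genes lay apart on chromosome 2 (Sscrofa11.1), except for 2 neighbourhoods. CDHR5 (376449 to 382713, minus strand) and EPS8L2 (435257 to 452630, plus strand) were separated by 52543 bases with 3 other tested genes between them. SLC34A1 (80548208 to 80563380, minus strand) and CDHR2 (81319179 to 81361598, minus strand) were separated by 755798 bases with 13 other tested genes between them. SLC5A12 spans 33560988 to 33613548 and USH1C 41593793 to 41646777, both on the plus strand, and SLC23A1 spans 141258318 to 141277555 and LOC100521431 66397234 to 66453036, both on the minus strand.

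The start regions of the 8 genes, from 250 bases before to 50 bases after the start of the most abundant transcript, were searched on both strands for motifs of regulators of kidney tubule, gut and endoderm. For HNF1 only part of the motif was searched, the capitals of the first sequence shown with any base at its seventh letter. The others were CAAAGTCCA for HNF4, TTTATNG for CDX2 and AGATAA for GATA factors. The HNF1 letters were in the window of CDHR2, 21 bases before its start, and in 7 (0.351%) of 1997 windows of protein-coding genes of chromosome 2. The GATA letters were in the window of SLC5A12, as in 11.3% of all windows. The HNF4 and CDX2 letters were in none of the 8 windows, against 0.501% and 10.9% of all windows. Both matches are shown in the direction of the gene, with the matched letters in capitals.
CDHR2, chr2:81361600-81361629, minus strand: ctctgtcacgGTTAATGATTgctcagggga
SLC5A12, chr2:33560937-33560966, plus strand: aagagcatgttaTTATCTggcaagtccatc
The windows differed in composition, from 42.3% G and C with 0 CpG sites in SLC5A12 to 78.7% with 39 CpG sites in EPS8L2, where the median window had 58.7% and 16 sites. A match is a description of the letters only and binding was not measured.

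In all 8 genes the highest PA embryo lay below the lowest CN embryo, by TPM and by normalized CPM. Over the 1652 genes tested the same held for 13.6%, and 28.3% did not overlap in either direction. The criteria for a change were an adjusted p-value from edgeR under 0.05 with a log2 fold change beyond 1 in either direction. They were met by 6 of the 8 genes, all lower in PA, and by 2.91% of all genes tested, 2.78% lower and 0.121% higher. Since the genes were chosen for this difference, nothing is read from these counts. The median log2 fold change, PA over CN, of the 8 genes was -2.04, that of the 7 genes without LOC100521431 was -1.98, and that of all genes tested was 0.02. In whole embryos, fewer cells of a type and less RNA per cell cannot be told apart.

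**Figure D1:**
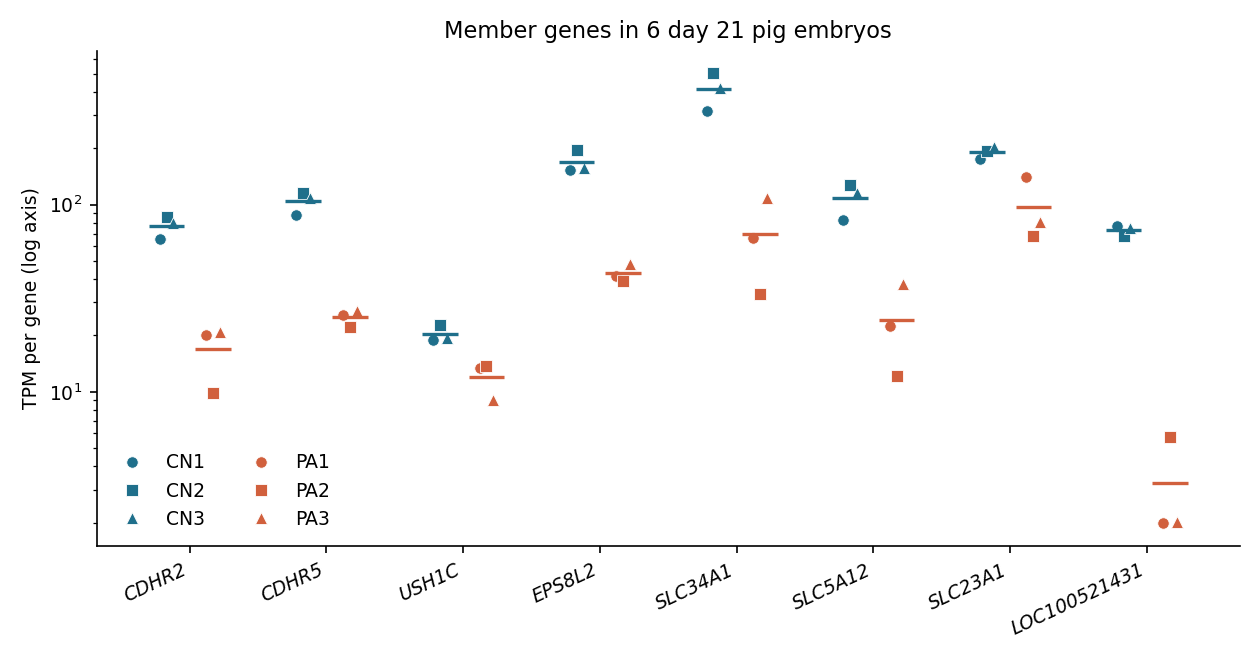
TPM of the 8 genes on a log axis, with a point for each embryo (circles, squares and triangles for embryos 1, 2 and 3 of each group) and a line at each group mean. SLC34A1 had the highest mean TPM in CN (414) and LOC100521431 the lowest in PA (3.24), and the points of PA lie below those of CN in every gene.

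Among the microvillar genes, CDHR2, whose product links microvilli at their tips, had TPM of 65.5, 85.7 and 79.8 in CN1, CN2 and CN3 and of 20.1, 9.88 and 20.9 in PA1, PA2 and PA3. The means were 77.0 ± 10.4 (SD, n = 3) in CN and 17 ± 6.14 in PA, a CN to PA ratio of 4.54. PA2 stood below the other PA embryos, which were close to each other. The log2 fold change was -2.10 (standard error 0.25).

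CDHR5, the partner of CDHR2 in these links, had TPM of 88.5, 115 and 109 in CN and of 25.6, 22.3 and 27.1 in PA. Its mean was 104 ± 14.0 (SD, n = 3) in CN and 25 ± 2.44 in PA, a ratio of 4.17 and a log2 fold change of -1.98 (standard error 0.13). The PA embryos were close together, with a ratio of the highest to the lowest of 1.21.

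EPS8L2, related to the actin capping and bundling protein EPS8, had TPM of 154, 196 and 158 in CN and of 41.8, 39.0 and 47.9 in PA. It was the most abundant of the 4 microvillar genes in each embryo, with 169 ± 23.1 TPM (SD, n = 3) in CN and 42.9 ± 4.53 in PA. The ratio was 3.94 and the log2 fold change -1.91 (standard error 0.11), the smallest error of the 8 genes.

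USH1C, the harmonin scaffold, was the least abundant of the 8 genes in CN and changed least. Its TPM was 18.9, 22.7 and 19.3 in CN and 13.4, 13.7 and 8.99 in PA, so that the lowest CN embryo was 0.46 above the highest PA embryo on the log2 scale. The means of 20.3 ± 2.09 (SD, n = 3) and 12.0 ± 2.65 gave a ratio of 1.68. The log2 fold change was -0.66 (standard error 0.23), and USH1C was not among the 6 genes that met the criteria. Unlike the cadherins, USH1C was lowest in PA3.

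Of the cotransporters, SLC34A1, the sodium-phosphate cotransporter of the proximal tubule, was the most abundant in CN. Its TPM was 317, 504 and 420 in CN and 66.3, 33.4 and 108 in PA. The mean of 414 ± 93.4 (SD, n = 3) in CN ranked 376 of 1539 tested genes of chromosome 2, and the mean in PA was 69.4 ± 37.6. The ratio was 5.96 and the log2 fold change -2.51 (standard error 0.33), with a ratio of the highest to the lowest PA embryo of 3.24.

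SLC5A12, a sodium-coupled lactate transporter of the apical tubule membrane, had TPM of 83.0, 127 and 115 in CN and of 22.4, 12.1 and 37.8 in PA. The order of the embryos was that of SLC34A1 in both groups, with PA2 lowest and PA3 highest. The means were 108 ± 22.7 (SD, n = 3) and 24.1 ± 12.9, a ratio of 4.49 and a log2 fold change of -2.10 (standard error 0.32).

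SLC23A1, the sodium-dependent vitamin C transporter of intestine and kidney, was second to SLC34A1 in CN. Its TPM was 175, 194 and 203 in CN and 141, 68.1 and 80.7 in PA, so that PA1 was close to CN1 while PA2 and PA3 were lower. The means were 191 ± 14.5 (SD, n = 3) and 96.6 ± 38.9, a ratio of 1.97. The log2 fold change was -0.88 (standard error 0.28), and SLC23A1 did not meet the criteria. Without PA1 the log2 fold change was -1.35 and 7 of the 8 genes met them.

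In order of mean TPM in CN, the 8 genes were SLC34A1, SLC23A1, EPS8L2, SLC5A12, CDHR5, CDHR2, LOC100521431 and USH1C. SLC23A1 and EPS8L2 overlapped between CN embryos, as did SLC5A12 with CDHR5 and CDHR2 with LOC100521431, so these neighbours did not differ beyond their spread. In PA, SLC23A1 had the highest mean and SLC34A1 the second, also with overlap. The genes just inside the criterion for the fold change and just outside it were EPS8L2 at -1.91 and SLC23A1 at -0.88.

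**Figure D2:**
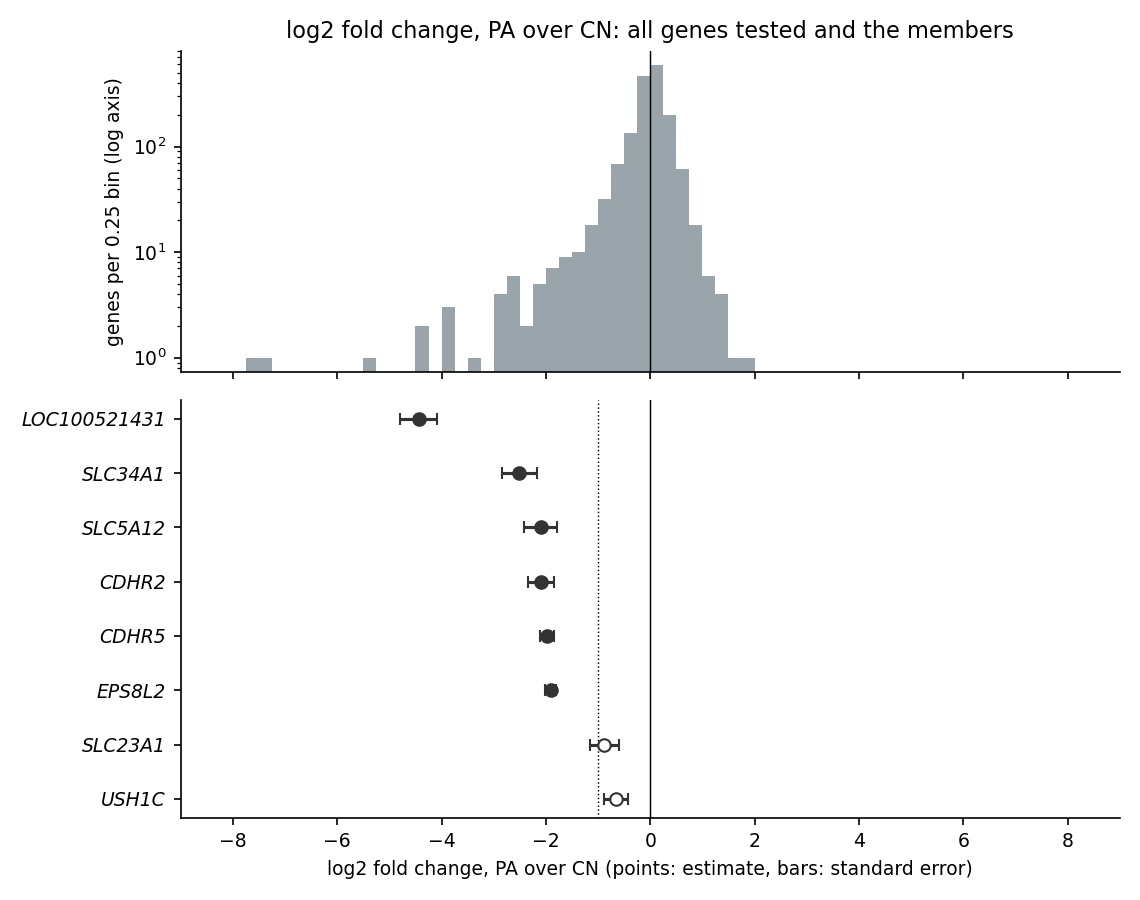
Top, number of genes by log2 fold change (PA over CN) for the 1652 genes tested, in bins of 0.25 with a log axis of counts. Bottom, the estimate and standard error for each of the 8 genes, filled where the criteria were met, with a dotted line at the fold change limit on the lower side, and the 6 filled points lie between -4.44 and -1.91.

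After the mean of each group was removed, the genes differed in how they varied among embryos, a measure that does not depend on the difference between PA and CN. Deviations are on the log2 CPM scale and correlations are over 6 embryos, given as a description. The range of SLC34A1 was 1.58 in PA and 0.42 in CN, so its correlations rest mainly on the 3 PA embryos. SLC34A1 and SLC5A12 varied almost alike, with deviations of 0.22, -0.90 and 0.68 for SLC34A1 and of 0.17, -0.85 and 0.68 for SLC5A12 in PA1, PA2 and PA3. In CN they were -0.22, 0.20 and 0.02 for SLC34A1 and -0.22, 0.15 and 0.07 for SLC5A12. The Pearson correlation of the pair was 0.997, the highest of the 1425 other genes with a mean of at least 10 CPM and counts in every embryo that were compared with SLC34A1. The gene second to it, at 0.996, was SLC22A8, an organic anion transporter of the proximal tubule that is not among the 8 genes. The other 7 tested genes of the kidney tubule list ranged from 0.885 for SLC22A5 and 0.768 for BHMT to 0.396 for SLC22A12, -0.135 for SLC22A4, -0.287 for DMGDH, -0.311 for SLC22A6 and -0.343 for BHMT2, and SLCO4C1 was at -0.571.

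CDHR2 followed SLC34A1 with a correlation of 0.897, which 23 genes exceeded, CDHR5 with 0.689, which 99 exceeded, and EPS8L2 with 0.662. USH1C ran the other way, at -0.615, and SLC23A1 was only loosely related, at 0.295. LOC100521431 was opposite to SLC34A1, at -0.987, with 1421 of the 1425 genes above it. The points share depth and scaling within each embryo, and 37 (2.6%) of the 1425 genes had the same order of embryos as SLC34A1 in both groups.

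Some of the genes spread more widely in PA than in CN and others did not, which was not tested. The range of log2 CPM over the 3 PA embryos was 1.58 in SLC34A1, 1.52 in SLC5A12, 1.18 in SLC23A1 and 1.15 in CDHR2, against 0.42, 0.37, 0.15 and 0.14 over the 3 CN embryos. LOC100521431 had a range of 1.63 in PA and 0.41 in CN, and USH1C of 0.83 and 0.16. The range was 0.32 in PA and 0.14 in CN for CDHR5, and 0.23 and 0.24 for EPS8L2, where the median gene with at least 10 CPM had a range of 0.26 in either group. PA2 was the lowest PA embryo in 6 of the 8 genes. Over all genes with at least 10 CPM, PA2 was the lowest PA embryo in 31.8%.

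**Figure D3:**
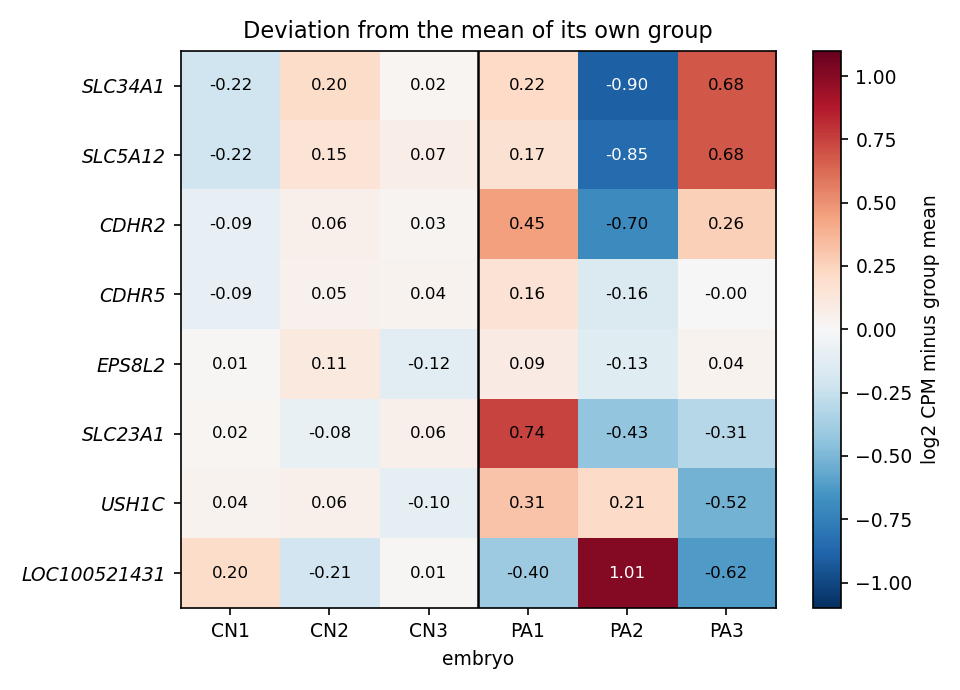
Deviation of log2 CPM from the mean of its own group for the 8 genes (rows) in the 6 embryos (columns), with the value printed in each cell and blue for lower and red for higher. SLC34A1 and SLC5A12 are low in PA2 (-0.90 and -0.85) and high in PA3 (0.68 in both), and LOC100521431 is high in PA2 (1.01).

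Several annotated transcripts contributed to 5 of the genes, and shares are of the TPM of the gene. In SLC23A1, variant X3 held 93.9% ± 4.29 (SD, n = 3) in CN and 95.6% ± 2.35 in PA. In EPS8L2, variant X2 held 74.9% ± 7.75 in CN and 67.4% ± 7.22 in PA (SD, n = 3), and in CDHR5 variant X1 held 54.7% ± 7.67 and 53.9% ± 13.8. These shares overlapped between the groups, so that the most abundant transcript was the same while the level of the gene differed. In SLC34A1, NM_001044623.1 held 70.6%, 69.4% and 66.8% in CN1, CN2 and CN3 and 81.0%, 73.8% and 93.2% in PA1, PA2 and PA3, without overlap. Variant X2 of SLC34A1 was estimated at 0 in PA1 and PA3 and held 14.0% in PA2. Some of these transcripts, NM_001044623.1 and X2 of EPS8L2 among them, have 0 bases of their own, and the uncertainty of dividing reads among them was not measured.

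LOC100521431 showed the largest difference of the 8 genes. Zinc finger proteins of this kind bind DNA, and the targets of this gene are not given by its annotation. The embryos held 595, 452 and 549 estimated counts of it in CN against 17, 47 and 16 in PA, all above the 3 counts taken as detectable. Its TPM was 76.5, 68.4 and 75.5 in CN and 1.98, 5.74 and 2.02 in PA, so that the PA embryos had 4.42% of the mean of CN. The log2 fold change was -4.44 (standard error 0.36), and -5.13 without PA2. With all embryos it was the fourth lowest value of all genes tested. Unlike SLC34A1, SLC5A12 and the cadherins, LOC100521431 was highest in PA2 among the PA embryos.

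The transcripts of LOC100521431 also differed between groups. Variant X1 (XM_013990640.2) had 478, 386 and 381 estimated counts in CN and was listed at 0 in each PA embryo. Its share of TPM was 80.8%, 85.5% and 69.8% in CN. Variant X5 (XM_021083735.1) held 17.5% ± 4.64 (SD, n = 3) in CN and 75.2% ± 7.87 in PA, and X2 (XM_021083732.1) held 2.25% ± 1.1 and 22.1% ± 3.76. X1 and X5 share the last exon of 3487 bases (66397234 to 66400720), the exon from 66401611 to 66401737 and almost all of the first exon, which begins the transcript at 66420162 in X1 and at 66420166 in X5. X1 also contains an exon of 61 bases, from 66401363 to 66401423, which X5 lacks and X2 holds. X1 has 0 bases of its own, so its estimate rests on exon combinations and not on separate sequence. The 13.2, 28.9 and 11.5 counts given to X5 in PA1, PA2 and PA3 may include reads of X1, and the 0 is an allocation and not a limit on X1.

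**Figure D4:**
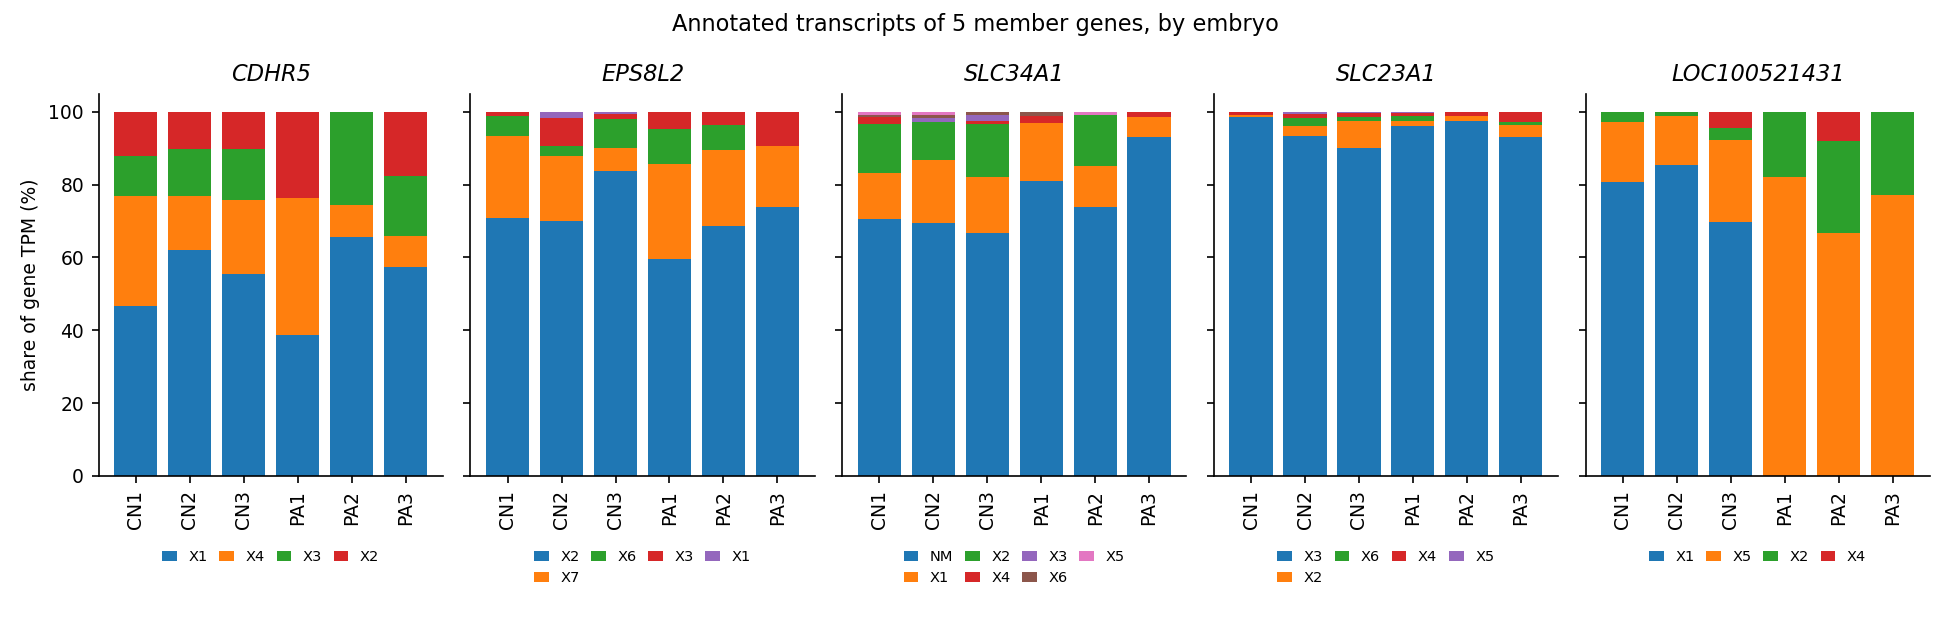
Share of the TPM of each gene (percent) held by its annotated transcripts in each embryo, for the 5 genes with several transcripts, with stacked bars that sum to 100 and a colour for each variant within a gene (NM is the NM_001044623.1 transcript of SLC34A1). Variant X1 of LOC100521431 holds 69.8% to 85.5% in CN and 0 in PA, while X3 of SLC23A1 holds means of 93.9% in CN and 95.6% in PA.

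Sharing of sequence with other genes was small. Of the 31-base words in the transcripts of each gene, 0% occurred in transcripts of other genes for CDHR2, CDHR5, USH1C, EPS8L2 and SLC23A1, and 0.0634% for SLC34A1, 0.166% for SLC5A12 and 2.24% for LOC100521431. The exon of 61 bases of LOC100521431 lies within an exon of the pseudogene LOC110259337 on the same strand, whose counts were 58 to 70 in CN embryos and 73 to 90 in PA embryos. Reads of the pseudogene and of LOC100521431 cannot be told apart on these 61 bases. CDHR2 shared 5 exon bases with GPRIN1 on the opposite strand and SLC23A1 shared 15 with MZB1.

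Flanking genes were compared to see whether the neighbourhood of each gene moved with it. Of the 16 nearest tested genes, 1 was lower in PA by both criteria, where 2.78% of all genes tested were, and the median log2 fold change was -0.06. An unadjusted p-value below 0.05 was found for 4 of the 16 and for 350 of the 1652 genes tested. The gene that fell was PFN3, a profilin gene 1684 bases from SLC34A1, with TPM of 33.8, 53.9 and 34.6 in CN and of 3.70, 2.25 and 12.7 in PA. PFN3 thus changed by -2.66 on the log2 scale, with a standard error of 0.48 (edgeR, adjusted p = 0.0164). Within groups the correlation of PFN3 with SLC34A1 was 0.906, which 17 of the 1425 genes exceeded. The ends of PFN3 (plus strand) and SLC34A1 (minus strand) face each other, and the reads do not keep the strand. In edgeR 0 of the 16 passed without CN2, where 3 had an unadjusted p-value below 0.05. With at least 10 counts required in every embryo, 0 of 13 passed in edgeR, where 2 had such a p-value. Genes of the 16 with fewer counts were not tested in that run, which says nothing about them. DESeq2 on all 16 with all embryos gave 1. Without PA1, SCT also passed, which made 2. On the other side of SLC34A1, RGS14 had a log2 fold change of 0.09 (adjusted p = 0.780 from edgeR). IRF7, 877 bases from CDHR5, was at -0.56 on the log2 scale (edgeR, adjusted p = 0.0749), with each PA embryo below each CN embryo. SCT, on the other side of CDHR5, had -1.06 (adjusted p = 0.346 from edgeR). TMEM80 and TALDO1, which enclose EPS8L2, had log2 fold changes of -0.09 and -0.03, and LOC100521069, the next gene above LOC100521431, of 0.05 (adjusted p = 0.646, 0.856 and 0.846 from edgeR). OTOG and ABCC8, beside USH1C, had 0.55 and 0.06 (adjusted p = 0.176 and 0.846 from edgeR). SNCB, beside CDHR2, had the lowest value, -2.85 with a standard error of 0.98, and did not pass (adjusted p = 0.132 from edgeR). The other neighbours, RNF44, FIBIN, ANO3, MATR3, PROB1 and MAN2B1, had log2 fold changes of 0.08, 0.16, -0.37, 0.17, -0.26 and -0.09 (adjusted p = 0.697, 0.478, 0.582, 0.365, 0.340 and 0.668 from edgeR). The 3 tested genes between CDHR5 and EPS8L2 had log2 fold changes of -1.06 to 0.11, with adjusted p-values from edgeR of at least 0.346. The 13 between SLC34A1 and CDHR2, SNCB among them, had -2.85 to 0.33, with adjusted p-values of at least 0.109.

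Other genes were taken from a list of 23 brush border genes and a list of 14 genes of apical transport, polarity and epithelial identity. Both lists were written with earlier results of these data known, so they are no separate support. Of these 37 genes, 10 lie on chromosome 2 and all 10 were tested, 2 of the brush border list and 8 of the other. The remaining 27 lie outside it and are listed at 5 counts or fewer, so that partners such as ANKS4B and MYO7B could not be assessed. Of the 2 genes of the brush border list USHBP1 fell in PA, and of the 8 others AP1M2 and CRB3 fell. This made 3 of 10 in all, where 2.78% of all genes tested fell, and the median log2 fold change of the 10 was -0.52. USHBP1, a harmonin-binding protein, fell from 11.9 to 14.4 TPM in CN to 4.34 to 7.56 in PA (log2 fold change -1.05, standard error 0.24, adjusted p = 0.0389 from edgeR).

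AP1M2, the epithelial subunit of the AP-1 sorting adaptor, had TPM of 102 to 122 in CN and 42.1 to 56.0 in PA (log2 fold change -1.18, standard error 0.14, adjusted p = 0.00208 from edgeR). CRB3, an apical polarity protein, had 141 to 171 in CN and 59.2 to 68.0 in PA (log2 fold change -1.21, standard error 0.14, adjusted p = 0.00208 from edgeR). Both passed without any 1 embryo, whereas USHBP1 was lost in each case, and EHF, an epithelial transcription factor with a log2 fold change of -1.25, had an adjusted p = 0.0604 from edgeR with all embryos. EHF passed without CN1 or PA1 and, with all embryos, by DESeq2, with library totals, without the filter and with chromosome 2 genes alone, each of the last 4 giving 4 of 10. The vesicle fusion protein STX3 and the small GTPases RAB8A and RAB11B of apical transport had log2 fold changes of -0.20, -0.02 and 0.02 (adjusted p = 0.453, 0.907 and 0.896 from edgeR). MISP, an actin-bundling protein of microvilli, had -0.59 (adjusted p = 0.0803 from edgeR), and STXBP2, the partner of STX3, -0.44 (adjusted p = 0.0643 from edgeR).

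All other genes of chromosome 2 with an SLC symbol were taken as a list by symbol, without SLC34A1, SLC5A12 and SLC23A1, which had been selected as lower in PA. Of 39, 35 were tested and 4 (11.4%) fell, where 2.78% of all genes tested fell, and the median log2 fold change was -0.06. Of these, SLC22A12 and SLC22A8 also stand in the kidney tubule list, and without the genes of that list 2 of 30 (6.67%) fell. The genes that fell were SLC22A12, a urate transporter, with a log2 fold change of -4.32 (adjusted p = 4.73e-04), SLC22A8 with -2.82 (adjusted p = 0.00348), the mitochondrial carrier SLC25A45 with -2.02 (adjusted p = 0.0216) and the tubular anion transporter SLCO4C1 with -1.47 (adjusted p = 0.0194, all from edgeR). SLC22A12 had 59, 113 and 129 counts in CN and 7, 3 and 4 in PA, close to the 3 counts taken as detectable, so the size of its fold change is uncertain. SLC22A12 and SLC25A45, with 5 to 8 counts in PA, were not tested when at least 10 counts were required in every embryo. SLC25A45 and SLCO4C1 were lost without CN3 or PA3, which left 2, SLCO4C1 also without CN1 or PA2, and SLC25A45 also without PA1, where SLC25A48 passed in its place. SLC1A2, a glutamate transporter, rose by 0.80 on the log2 scale (adjusted p = 0.0406 from edgeR), below the fold change limit. Widely expressed carriers such as SLC44A2, SLC26A2 and SLC25A22 had log2 fold changes of -0.06, -0.01 and -0.20 (adjusted p = 0.712, 0.976 and 0.580 from edgeR).

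The genes of the kidney tubule list, which was written with earlier results of these data known, are no separate support. Of 40 listed genes, 8 on chromosome 2 were tested and 4 fell (SLC22A12, SLC22A8, BHMT2 and DMGDH), where 2.78% of all genes tested fell, with a median log2 fold change of -1.84. SLC22A8 had TPM of 104, 176 and 158 in CN and of 18.9, 7.90 and 32.0 in PA, the order of SLC34A1 in both groups. BHMT2 and DMGDH, enzymes of methyl group metabolism, fell by 4.0 and 2.84 on the log2 scale (adjusted p = 0.00441 and 0.00208 from edgeR), and both were highest in PA1 and lowest in PA3 among PA embryos. SLC22A6 and BHMT had log2 fold changes of 0.13 and 0.16 (adjusted p = 0.839 and 0.892 from edgeR). Outside chromosome 2, SLC13A1, the sodium-sulfate cotransporter of the tubule, was the only gene of the lists to pass the filter, with 19, 21 and 21 counts in CN and 22, 26 and 45 in PA (log2 fold change 0.54, adjusted p = 0.375 from edgeR).

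Markers of other cell types could be compared only for the listed genes that lie on chromosome 2 and passed the filter, and their part in the differences of the 8 genes was not tested. WT1, the only 1 of 12 nephron regulators tested, had a log2 fold change of -0.47 (adjusted p = 0.0217 from edgeR), below the fold change limit. For gut and yolk sac, 1 of 19 listed genes was tested, MUC2, at summed levels of 1.88 to 5.06 CPM in CN and 1.13 to 5.49 in PA, and CDX1 had at most 2 counts. The 4 tested of 12 liver genes summed to 7140 to 7870 CPM in CN and 5160 to 10600 in PA. Their log2 fold changes were -0.08 for F2, -0.41 for F12, -0.07 for SERPING1 and 0.22 for C3 (adjusted p = 0.846, 0.459, 0.837 and 0.875 from edgeR). The 3 tested of 6 neural genes summed to 1050 to 1140 CPM in CN and 1540 to 1700 in PA, with log2 fold changes of 0.84 for PAX6, 0.70 for SYT13 and 0.46 for ELAVL3, below the fold change limit (adjusted p = 0.00159, 0.00244 and 0.0165 from edgeR). Of 6 skeletal muscle genes, 3 were tested and 1 fell by both criteria, where 2.78% of all genes tested fell. It was TNNI2 (log2 fold change -1.34, adjusted p = 0.00169 from edgeR). MYOD1 and TNNT3 had log2 fold changes of -0.43 and -0.75 (adjusted p = 0.121 and 0.132 from edgeR). The 3 muscle genes summed to 158 to 183 CPM in CN and 89.3 to 107 in PA. The 2 tested of 6 erythroid genes summed to 188 to 299 CPM in CN and 162 to 191 in PA, with log2 fold changes of -0.74 for KLF1 and -0.06 for EPOR (adjusted p = 0.127 and 0.840 from edgeR).

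**Figure D5:**
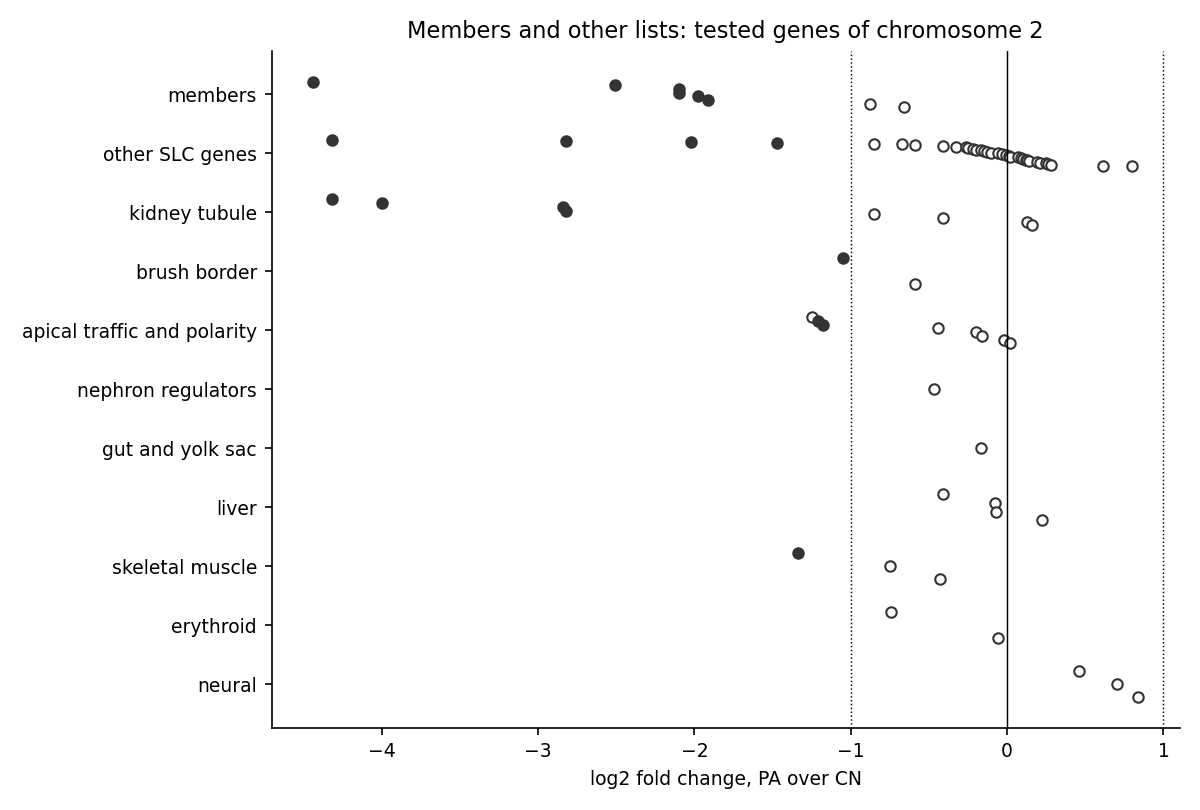
Log2 fold change (PA over CN) of each tested gene of chromosome 2 in the 8 genes and in 10 other lists, with a point for each gene, filled where both criteria were met, and dotted lines at the fold change limit in each direction. In the other SLC genes 4 of 35 points are filled, in the kidney tubule list 4 of 8, and the neural genes lie at 0.46 to 0.84.

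The genes most like the mean of the 8 over the 6 embryos were named by Pearson correlation of log2 CPM among the 1387 other tested genes annotated on chromosome 2 with a mean of at least 10 CPM, a measure in which the difference between groups dominates. They were ESRRA, a nuclear receptor of energy metabolism, at 0.992, SLC22A12 at 0.991, and the lysosomal protease CTSD, the neural gene CEND1 and the fast muscle gene TNNI2, each at 0.990. ESRRA had TPM of 388, 449 and 433 in CN and of 267, 240 and 260 in PA. CTSD had 3610, 4240 and 3500 in CN and 1340, 1250 and 1270 in PA. The genes thus include products of muscle, nerve and lysosomes, and nothing on shared function or control is read from these values.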

How the data were processed

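Whole embryos (3 PA, 3 CN) were sequenced by the authors after polyA selection with the TruSeq RNA kit. The authors quantified reads with Salmon 1.3.0 and deposited estimated counts (expected counts, not whole numbers) and TPM per transcript. Effective lengths in the same deposited tables gave the length offset. Of 81496 transcripts, those of each gene were summed by NCBI Annotation Release 106 of Sscrofa11.1, the build named in the submitters' processing notes, and TPM sums to the same total in each embryo.

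Rounded gene counts were tested in R 4.3.3 with edgeR 4.0.16 (TMM factors, length offset, filterByExpr with a minimum count of 10 and total of 15, robust quasi-likelihood test, 2-sided) over 1652 genes, with Benjamini-Hochberg adjustment. A change required an adjusted p-value under 0.05 with a log2 fold change beyond 1 in either direction. Standard errors were obtained from the fitted log2 fold change and its F statistic. Python 3.11.15 and pandas 2.3.3 served for the other steps. Within groups, embryos differed beyond sampling noise (chi-square per degree of freedom of at least 5.8). The scripts were tested on simulated data. Detection limits cover counting error only.

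The genes, lists and motifs were chosen with earlier results of these data known. Named genes are the 8 and, on each side, the nearest tested gene that does not overlap them. List genes that met the criteria or were most abundant are also named, as are the 5 most correlated genes with at least 10 CPM. Other genes given with values, such as SLC13A1, EHF, MISP, IGF2 and SLC1A2, and the within-group comparison with SLC34A1 were singled out after their values were seen. Alternatives were DESeq2 1.42.0, library totals, no length offset, no filter, 10 counts in every embryo, the replicate number as a term, chromosome 2 alone, removal of H19 and IGF2, each embryo left out and, for TPM, a pseudocount of 1 in place of 0.1 and TMM scaling. Protein sequences were not used here.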

Additional observations from a re-analysis of the deposited data

How the results depend on the processing

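Over 236 alternative values of 33 results, 224 kept their side of the criteria or stayed close to the value given, 0 reversed, 2 were weaker, 1 was stronger and 9 moved. All 8 genes had a negative log2 fold change in every alternative run. The number of the 8 that met the criteria was 6, except 4 without the filter (SLC34A1 and SLC5A12 lost, still at log2 fold changes of -2.51 and -2.10) and 7 without PA1. Their median log2 fold change ranged from -2.09 to -1.84 with each embryo left out. Over all genes, 48 met the criteria, 77 without the filter (70 lower, 7 higher), 57 by DESeq2 and 34 to 52 with each embryo left out. The other SLC genes gave 2 when at least 10 counts were required in every embryo and 2 to 4 with each embryo left out. Of the 10 brush border and apical genes, 3 met the criteria, 4 by DESeq2, with library totals, without the filter and with chromosome 2 genes alone (EHF added in each), and 2 to 3 with each embryo left out. The kidney tubule genes gave 4, and 3 without the filter (BHMT2 lost) and 3 with at least 10 counts required in every embryo (SLC22A12 not tested). The flanking genes gave 2 without the length offset, 2 without the filter (SNCB added in both), 0 in edgeR when at least 10 counts were required in every embryo (13 tested, 2 at an unadjusted p-value below 0.05, a filter under which DESeq2 was not run), and 0 to 2 with each embryo left out. The cause was not tested.

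The labels number the embryos of both groups alike although they are different embryos, and deviations of same-numbered embryos were correlated at 0.254, 0.122 and 0.0425, so the numbers do not pair them. With the replicate block 43 genes met the criteria, 6 of the 8 genes among them with a median of -2.07, and 3 other SLC genes, 2 brush border and apical genes, 4 kidney tubule genes and 1 flanking gene. The genes of the lists that lie outside chromosome 2 are listed at 45 counts or fewer, and SLC13A1 alone among them could be tested, for which no reason is given in the sources used here.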
